A study of Pimephales promelas with 16 samples.

Results

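A set of 100 array probes was lower in fathead minnow ovary explants incubated with Flutamide or with LIN than in explants incubated with DHT or kept as controls. The members were the first 100 of the 15208 probes on the array by a rule that used the group means themselves. A probe had to be well above background on all 16 arrays, which 11144 probes were, and its DHT and control means had to lie within 0.3 of each other on the log2 scale, which 8226 of these did. The 100 with the widest margin were then selected, where the margin is the lower of the control and DHT means minus the higher of the Flutamide and LIN means. The margin was above 0 for 2989 of the 8226 probes. The members were thus selected on the levels of all 4 groups on all 16 arrays, and the differences between groups given here for the 100 are a description and were not tested as a set.

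The series title puts the interest in gene networks that linuron and flutamide share in the ovary of this small freshwater fish. Total RNA from ovary explants of females, which are pieces of ovary kept in culture, was labelled with Cy3 and hybridised to Agilent one-colour arrays, 1 sample per array. The Flutamide, LIN and DHT groups were incubated with the named compound at 1e-06 M for 12 h, and the control group has no stated carrier in the labels. Each group has 4 arrays, and the sample titles number them 2, 3, 5 and 6 for Flutamide, 3, 4, 5 and 6 for LIN, 1, 4, 5 and 6 for DHT, and 1, 3, 4 and 6 for control. RNA was extracted with TRIzol, and only extracts with an integrity number above 7.5 were hybridised. Whether the 4 samples of a group are separate fish is not stated, and every p-value therefore measures only how much these samples vary, which may be technical. Explants hold oocytes, follicle cells and connective tissue together, and fewer cells of a type and less RNA per cell cannot be told apart in them.

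Androgens act through the androgen receptor, a transcription factor that enters the nucleus once a hormone is bound and then raises or lowers the transcription of its target genes. DHT, dihydrotestosterone, is an androgen that aromatase cannot turn into an estrogen. Flutamide, an anilide whose ring carries a nitro and a trifluoromethyl group, blocks the receptor in vertebrates. LIN stands for linuron here, after the series title: a herbicide of the urea class with a chlorinated ring, which also binds the receptor and opposes androgens in mammals and fish. In fish ovaries androgens are both precursors of estradiol, which drives yolk protein synthesis in the liver, and hormones with their own effects on oocyte growth.

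Every probe has an identifier and the name of a contig or sequence, and no gene symbol. The 100 probes carry 100 different sequence names, and 0 of them matched a symbol or accession in the RefSeq gene table of assembly fPimPro1.hap1.1, as was the case for all 14499 names on the array. Genes, pathways and cell type markers could therefore not be assigned, and probe sequences were not analysed here, so the members are given by identifier. Of the 100, 77 carry contig names starting with FJU, against 83.8% of the 11144 probes well above background on all arrays, and 23 carry gi names, against 16.0%. Other marks in the names were close to their share of these 11144 probes: 6 members were FJU_SB contigs (4.31%) and 25 carried an rc mark (21.8%). By position, 53 members lay in rows 1 to 96 of the array, against 49.7% of the same probes.

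The members were mostly dim probes. Levels here are log2 of the processed signal minus log2 of the array's 75th percentile, so 0 is the level that 75% of the probes on an array stay below. The mean level of a member over the 16 arrays had a median of -3.83, with a range of -6.08 to 0.72, against a median of -1.68 over all 11144 probes. When these probes were split by mean level into 5 classes of equal size, 38 members fell in class 1, the dimmest, 42 in class 2, 17 in class 3, 3 in class 4 and 0 in class 5. Only 1 member had a mean level above 0, against 33.7% of all probes. Within groups the members had a median SD of 0.53, compared with 0.51 over all probes of the 2 dimmest classes and 0.40 over all 11144.

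Relative to bright probes, dim probes as a whole were also lower with both compounds. In class 1 the median difference over all probes was -0.31 for Flutamide minus control, -0.41 for LIN minus control, -0.23 for Flutamide minus DHT and -0.30 for LIN minus DHT. In class 3 the same medians were -0.11, -0.11, -0.05 and -0.04, and in class 5 they were 0.07, 0.01, 0.06 and 0.01. The lower the level, the more negative was the median in classes 1 to 4 of all 4 comparisons, and the part this has in the members' margin was not tested.

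The margin over the 100 had a median of 0.88, which is 1.85-fold, and ran from 0.75 (1.68-fold) to 1.89 (3.70-fold), with 21 probes above 1. The threshold did not fall at a gap in the values. The last probes inside were UF_Ppr_AF_105643 (FJU.7944.C1) with a margin of 0.746437 and UF_Ppr_AF_109184 (gi_73436914) with 0.746068. The first outside were UF_Ppr_AF_113868 (FJU.2746.C2) with 0.74406 and UF_Ppr_AF_106286 (FJU.11807.C1) with 0.742757.

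Against control, the median difference over the members was -0.93 with Flutamide (quartiles -1.10 and -0.85) and -1.10 with LIN (quartiles -1.25 and -0.95). The median over all 11144 probes was -0.08 for Flutamide minus control and -0.10 for LIN minus control. Against DHT, the median member differed by -0.97 with Flutamide and by -1.14 with LIN, where all probes had medians of -0.04 and -0.06. DHT minus control, which the rule held within 0.3, had a median of 0.01 over the members, with 46 of them below 0 (53.9% of all probes). The comparisons share their control or DHT arrays, and the rule fixed the sign of all 4 for every member.

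That DHT and control stood level rests on the scaling. When each array was centred on Agilent's E1A spike-in control spots, a scaling added after seeing the data, the median over all 11144 probes moved to -0.44 for Flutamide minus control, -0.04 for LIN minus control, -0.05 for Flutamide minus DHT, 0.36 for LIN minus DHT and -0.37 for DHT minus control. The members' medians were then -1.29, -1.04, -0.99, -0.73 and -0.34, with all 100 below 0 in each. Of all probes, 88.7%, 54.7%, 57.2%, 16.6% and 91.3% were below 0 in the same order. The members were chosen on differences between these groups, and centring moves all probes of an array by the same amount. Nothing is therefore read from the signs. The members were also lower with DHT than in control, by about the shift of all probes. On this scale the rule chose 30 of the 100 again. On that scale the members' median level was -2.23 to -1.67 on the Flutamide arrays, -1.97 to -1.10 on the LIN arrays, -1.12 to -0.76 on the DHT arrays and -0.93 to -0.27 on the control arrays. LIN 4 and DHT 4 crossed by a small amount, and Flutamide and DHT arrays did not overlap.

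Flutamide and LIN were given at the same concentration and for the same time. Flutamide minus LIN had a median of 0.12 over the members, with 22 members below 0 and a range of -0.38 to 0.53, compared with a median of 0.04 and 41.7% below 0 over all 11144 probes. When arrays were centred on spike-in spots the members' median turned to -0.31, with 97 members below 0, and that of all probes to -0.39, with 94.2% below 0. Scaled to the 75th percentile, Flutamide minus LIN within a number had members' medians of 0.31 (number 3), 0.14 (number 5) and 1.21 (number 6). All probes had medians of 0.09, 0.06 and 0.12 there, and the 2 dimmest classes 0.09, 0.13 and 0.34. No probe of the 13146 tested was called in this comparison (0%), in either direction, by limma at an adjusted p below 0.05. A call missed does not show that the compounds act alike: the widest difference among members, 0.53 with a standard error of 0.22, was that of UF_Ppr_AF_103365 (limma, unadjusted p = 0.0282, adjusted p = 1.00).

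The median level of the 100 differed among arrays of a group as well as between groups. On the 4 Flutamide arrays, numbers 2, 3, 5 and 6, the members' median level was -4.66, -3.83, -4.49 and -4.10, with a mean of -4.27 ± 0.38 (SD, n = 4). On the LIN arrays, numbers 3, 4, 5 and 6, it was -4.03, -3.66, -4.56 and -5.30, with a mean of -4.39 ± 0.71 (SD, n = 4). On the DHT arrays, numbers 1, 4, 5 and 6, it was -3.25, -3.15, -3.31 and -3.23, with a mean of -3.24 ± 0.07 (SD, n = 4). On the control arrays, numbers 1, 3, 4 and 6, it was -2.99, -3.66, -3.14 and -3.28, with a mean of -3.27 ± 0.29 (SD, n = 4). The LIN arrays had the widest spread and the DHT arrays the narrowest, and LIN 4 lay at the level of control 3, so LIN and control met at one point.

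Signals on these probes were low in absolute terms but above the local background. The members' median processed signal was between 72.0 and 117 units on the Flutamide arrays, between 77.9 and 120 on the LIN arrays, between 97.1 and 310 on the DHT arrays and between 138 and 352 on the control arrays. The median spot over its local background was lowest on LIN 6, at 3.07 times, and highest on control 6, at 11.3 times. The 75th percentile by which an array's signals are divided was between 921 and 3418 units, and each array had 80.9% to 87.8% of its probes well above background.

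Few members separated the groups array by array. All 8 Flutamide and LIN arrays lay below all 8 DHT and control arrays for 16 of the 100, where the rule chose the members on these contrasts and 0.305% of the 11144 probes did so. In the single contrasts the 4 arrays of one group lay below all 4 of the other for 38 members in Flutamide against control (background 4.53%) and for 30 in LIN against control (background 2.6%). The same held for 62 members in Flutamide against DHT (background 4.08%) and for 56 in LIN against DHT (background 3.42%). These counts describe what the rule chose.

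The widest margin, 1.89, belonged to UF_Ppr_AF_110263 (gi_73455955). Its level was -6.20, -4.56, -5.08 and -4.53 on the Flutamide arrays and -5.24, -4.55, -5.22 and -6.46 on the LIN arrays, against -3.02, -3.30, -2.85 and -3.08 on the DHT arrays and -2.15, -4.72, -3.08 and -2.87 on the control arrays. Control 3 stood apart from the other control arrays, and it was the only one of the 8 DHT and control arrays within the range of the Flutamide and LIN arrays. The probe next in rank, UF_Ppr_AF_107736 (FJU.321.C2), with a margin of 1.79, had -6.56, -5.56, -5.83 and -5.05 on the Flutamide arrays and -5.94, -5.03, -5.68 and -6.81 on the LIN arrays. It had -3.84, -4.08, -3.91 and -3.52 on the DHT arrays and -3.34, -4.77, -4.34 and -3.40 on the control arrays. Here the groups did not overlap, and a gap of 0.26 separated LIN 4 from control 3.

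The brightest members kept the same order of groups at levels near the 75th percentile. UF_Ppr_AF_101871 (FJU.2682.C2), ranked 4 by margin at 1.36, had -1.50, -0.06, -1.32 and -0.41 on the Flutamide arrays and -0.39, -0.36, -1.46 and -1.12 on the LIN arrays. It had 0.90, 0.60, -0.18 and 0.82 on the DHT arrays and 0.78, 0.49, 0.49 and 0.46 on the control arrays. DHT 5 and Flutamide 3 overlapped, and the remaining arrays kept apart. UF_Ppr_AF_115802 (FJU_SB_30.463.C2), the brightest member, averaged 0.33 ± 0.47 with Flutamide, -0.05 ± 0.79 with LIN, 1.42 ± 0.55 with DHT and 1.20 ± 0.63 in controls (SD, n = 4 each). Its highest Flutamide array, number 2 at 0.97, lay above control 3 at 0.40 and DHT 5 at 0.93, so the groups overlapped.

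At the dim end, UF_Ppr_AF_102126 (FJU.7252.C2) averaged -6.48 ± 0.57 with Flutamide, -6.81 ± 0.87 with LIN, -5.41 ± 0.79 with DHT and -5.60 ± 0.77 in controls (SD, n = 4 each). UF_Ppr_AF_114699 (gi_72723869) averaged -6.45 ± 0.44 with Flutamide, -6.37 ± 0.60 with LIN, -5.35 ± 0.34 with DHT and -5.52 ± 0.24 in controls (SD, n = 4 each). In UF_Ppr_AF_102126 the groups overlapped widely. Flutamide 3 (-5.78), Flutamide 6 (-6.32), LIN 3 (-6.45) and LIN 4 (-5.80) all lay above control 3 at -6.56. In UF_Ppr_AF_114699 only LIN 4, at -5.60, reached into the range of the DHT and control arrays.

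Members differed widely in how tightly their replicates lay. The steadiest was UF_Ppr_AF_110985 (gi_73448119), with a pooled within-group SD of 0.27. It had -4.55, -4.47, -4.74 and -4.10 on the Flutamide arrays and -4.83, -4.26, -4.41 and -4.79 on the LIN arrays, against -3.73, -3.68, -3.28 and -3.50 on the DHT arrays and -3.30, -4.00, -3.76 and -3.49 on the control arrays. All 8 arrays with Flutamide or LIN were below the other 8, by a gap of 0.10. The least steady was UF_Ppr_AF_110340 (FJU.8380.C2), with an SD of 1.51 and a margin of 1.32, ranked 5. Its Flutamide values were -6.90, -5.50, -6.00 and -6.07, its LIN values -5.91, -5.43, -6.06 and -6.52, its DHT values -3.37, -4.38, -5.24 and -5.63 and its control values -0.38, -6.44, -5.25 and -5.71. Control 1 stood far above the other control arrays, and control 3 lay below all LIN arrays but number 6 and all Flutamide arrays but number 2.

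UF_Ppr_AF_103926 (gi_72735958) had a like spread, with an SD of 1.07. Its Flutamide values were -6.80, -4.04, -6.96 and -4.91, its LIN values -4.56, -5.31, -7.16 and -6.24, its DHT values -3.99, -4.78, -6.04 and -4.30 and its control values -3.95, -5.21, -5.21 and -4.14. Number 5 was lowest in each of the 3 groups that hold it.

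limma tested single probes over all 13146 kept probes, with Benjamini-Hochberg adjustment and a threshold of 0.05. Of the 100 members, 1 was called lower with Flutamide than in controls (2 of all probes, 0.0152%) and 1 lower with LIN than in controls (3 of all probes, 0.0228%). Against DHT, limma called 0 members and 0 probes in all (0%) in both Flutamide and LIN, although 77 members were lower with Flutamide (3.88% of all probes were) and 86 lower with LIN (6.02% of all) at an unadjusted p below 0.05. At that unadjusted p, 76 members were lower with Flutamide than in controls (7.14% of all probes were) and 86 lower with LIN than in controls (7.86% of all). The rule used these contrasts, so nothing is read from the counts.

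The probe called for Flutamide was UF_Ppr_AF_101427 (FJU.6392.C3). It had -4.67, -4.27, -4.50 and -4.37 on the Flutamide arrays and -3.92, -3.66, -4.65 and -4.57 on the LIN arrays, against -2.99, -3.25, -3.02 and -2.99 on the DHT arrays and -2.67, -3.26, -3.02 and -2.69 on the control arrays. Every array with Flutamide or LIN lay below every other, by a gap of 0.40, and Flutamide minus control was -1.54 with a standard error of 0.22 (limma, adjusted p = 0.0399). The probe called for LIN was UF_Ppr_AF_103365 (FJU.12821.C1), with -1.52, -1.06, -1.35 and -1.45 on the Flutamide arrays and -1.65, -1.53, -1.74 and -2.59 on the LIN arrays. It had -0.85, -0.41, -0.36 and -0.35 on the DHT arrays and -0.44, -0.60, -0.43 and -0.26 on the control arrays. LIN minus control was -1.45 with a standard error of 0.22 (limma, adjusted p = 0.0454), and this probe also had the widest Flutamide minus LIN difference of the members, with LIN 6 its lowest array.

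Both calls hung on the fit. With replicate number as a fixed block limma called 0 of the 13146 probes in every comparison (0%), with 22 members lower with Flutamide (5.13% of all probes were) and 84 lower with LIN (8.93% of all) than in controls at an unadjusted p below 0.05. With number as a random block, at an estimated correlation of 0.631 between arrays of one number, it called 2 members lower with Flutamide than in controls (10 of all probes, 0.0761%) and 23 lower with LIN than in controls (84 of all, 0.639%). In that fit it also called 13 members lower with LIN than with DHT (45 of all, 0.342%) and 0 lower with Flutamide than with DHT. UF_Ppr_AF_101427 kept its Flutamide call there, at -1.40 with a standard error of 0.21 (limma, adjusted p = 0.0356), and UF_Ppr_AF_103365 its LIN call, at -1.51 with a standard error of 0.19 (limma, adjusted p = 0.00440). Single arrays also set both counts. Leaving out any Flutamide, DHT or control array gave 0 members called lower with Flutamide than in controls. For LIN against control, 14 of the 16 fits that left out 1 array called 0 members, and without DHT 1 the count was 1. Without LIN 4, the highest LIN array, 21 members were called lower with LIN than in controls (63 of all probes, 0.479%).

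Contigs of one stem, the part of the name before its last mark, met in the list once. All 3 probes of stem FJU.6392 on the array were members, and they were picked out here after their values were seen. Beside UF_Ppr_AF_101427, these are UF_Ppr_AF_111116 (FJU.6392.C2) and UF_Ppr_AF_100885 (FJU.6392.C5), with margins of 1.12 and 0.87. UF_Ppr_AF_111116 had -5.03, -3.54, -4.14 and -3.96 on the Flutamide arrays and -4.03, -3.90, -4.24 and -6.19 on the LIN arrays, against -2.97, -3.09, -2.90 and -3.21 on the DHT arrays and -2.47, -2.94, -2.96 and -3.32 on the control arrays. UF_Ppr_AF_100885 had -4.14, -3.65, -4.19 and -3.98 on the Flutamide arrays and -3.49, -3.17, -4.10 and -4.13 on the LIN arrays, against -2.60, -3.13, -2.86 and -2.81 on the DHT arrays and -2.51, -3.26, -2.97 and -2.59 on the control arrays. In the first the groups did not overlap, and in the second control 3 lay below LIN 4. Probes of related contigs may measure the same transcript, so they may not be separate observations.

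Other contigs of the members' stems had a positive margin at a share near that of all probes, so nothing is read from their count. The array holds 28 further probes of 19 members' stems, of which 21 were well above background on all arrays, and 8 of these had a positive margin, with a median of -0.04. Over all 11144 probes 34.7% had a positive margin and the median was -0.10. In 1 case a second probe carries exactly the sequence name of a member: UF_Ppr_AM_120060 and UF_Ppr_AF_114476 both name FJU.7031.C1. The member UF_Ppr_AM_120060 averaged -5.36 ± 0.33 with Flutamide, -5.31 ± 1.35 with LIN, -4.50 ± 1.07 with DHT and -4.23 ± 1.07 in controls (SD, n = 4 each). The second probe averaged 1.54 ± 0.52 with Flutamide, 1.43 ± 0.40 with LIN, 1.63 ± 0.21 with DHT and 1.28 ± 0.41 in controls (SD, n = 4 each), a margin of -0.26, so probes with that 1 name disagreed.

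Within groups, the members moved together. On LIN 4, 99 of the 100 lay above their LIN mean and on LIN 6 only 1 did, with median deviations of 0.73 and -0.91. On control 3, 2 members lay above their control mean, and on control 1, 90 did, with median deviations of -0.51 and 0.36. Flutamide 3 stood high (95 members above, median 0.46) and Flutamide 2 low (9 members above, median -0.45). On the 4 DHT arrays the median deviation stayed between -0.07 and 0.09. Over all 11144 probes the median deviation had the same sign and was smaller, at 0.14 on LIN 4 and -0.10 on LIN 6. It was -0.10 on control 3, 0.10 on control 1, 0.12 on Flutamide 3 and -0.05 on Flutamide 2. The median level of all class 1 probes, the dimmest, was -4.93, -5.03, -5.56 and -5.80 on LIN 4, 3, 5 and 6. That level was -4.72 on control 1, -5.26 on control 3, -4.96 on Flutamide 3 and -5.37 on Flutamide 2. The 75th percentile that divides the signals was 1513, 1717, 2538 and 3066 units on LIN 4, 3, 5 and 6, the order in which the members' level fell. Among Flutamide arrays it was lowest on number 3, at 1024, and highest on number 2, at 2582. On control 1, 4, 3 and 6 it was 1096, 2028, 3020 and 3418 units, with members' median levels of -2.99, -3.14, -3.66 and -3.28. On the DHT arrays, where the level hardly changed, it ran from 921 to 2918. The part this divisor has in the common movement was not tested. These deviations leave the group means out, but they are not free of the choice. The rule used means that hold these same arrays, so a member may have entered the list through a single array. Without LIN 6 the rule chose 73 of the 100 again.

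The correlation of such deviations between 2 members, over the 16 arrays, averaged 0.643 over all pairs of members. It averaged 0.0389 over pairs of the 11144 probes and 0.175 over pairs from the 2 dimmest classes. With each probe's deviations scaled to the same size, a single component held 67.4% of their variance over the members. It held 26.7% over all probes and 33.0% over the 2 dimmest classes. The probes share arrays, dye, scanner signal and the array's divisor, so these values are a description without a p-value.

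Whether such deviations follow the replicate number was tested probe by probe. limma's F test for replicate number, in a fit with group and number, called 6759 of 13146 probes (51.6%) but 16 of the 100 members. This test uses the spread within groups and not the group means, but single arrays that helped to choose the members also shape that spread. Among the dim probes, 7 of the 38 members in class 1 and 6 of the 42 in class 2 were called, against 42.7% and 54.7% of all probes in those classes. The difference between these shares was not tested. A test of the slide in the same manner called 0 members and 0 of all probes (0%), with 39 members and 21.5% of all probes at an unadjusted p below 0.05. Single arrays moved both counts: without LIN 6, 35 members were called for number (51.8% of all probes), and without Flutamide 5, 11 were called for slide (6.23% of all).

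UF_Ppr_AF_106928 (FJU.9998.C1) had the smallest p of the number test among members (limma, adjusted p = 0.000681). It had -3.16, -4.45, -2.85 and -4.78 on the Flutamide arrays and -4.11, -3.19, -2.92 and -5.64 on the LIN arrays, against -2.52, -3.23, -1.78 and -4.13 on the DHT arrays and -1.99, -3.53, -2.57 and -4.12 on the control arrays. Number 6 was lowest in every group, and number 5 was highest in the 3 groups that hold it. UF_Ppr_AM_120060 followed (limma, adjusted p = 0.00169), with number 6 lowest in LIN, DHT and control arrays and Flutamide 2 lowest in its group. UF_Ppr_AF_101871, among the widest margins, was also called in this test (limma, adjusted p = 0.00345), with number 5 low at -1.32, -1.46 and -0.18 in the Flutamide, LIN and DHT groups.

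Arrays of the same number in different groups deviated together over all 11144 probes, at r from 0.348 to 0.783 in 16 pairs. The 80 pairs of other numbers had r from -0.433 to 0.410. Differences between arrays of one number were therefore read next. Number 6 is the only number in all 4 groups, and its 4 arrays lie on 1 slide. There the members' median was -0.84 for Flutamide minus control (97 of 100 below 0) and -2.11 for LIN minus control (100 below 0). Against DHT 6 it was -0.72 for Flutamide (96 below 0) and -1.94 for LIN (100 below 0). The medians over all 11144 probes were -0.07 and -0.17 against control, and 0.01 and -0.08 against DHT. Of all probes, 57.0% and 62.6% were below 0 against control, and 48.4% and 58.5% against DHT. In the 2 dimmest classes these shares were 67.7% and 78.1% against control, and 55.8% and 72.9% against DHT. DHT minus control was -0.14 over the members (82 below 0). It was -0.07 over all probes (60.9% below 0) and -0.18 over the 2 dimmest classes (69.1% below 0).

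Number 5 gave a like result against DHT. Flutamide 5 lies on slide 1, and LIN 5 and DHT 5 lie on slide 3, which was scanned on another day. The members' median was -1.10 for Flutamide minus DHT and -1.22 for LIN minus DHT, and all 100 were below 0 in both. The medians over all probes were -0.04 and -0.11, and those over the 2 dimmest classes -0.24 and -0.42. Below 0 were 56.2% and 62.3% of all probes, and 70.9% and 79.7% of the 2 dimmest classes.

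The differences were smaller in number 4. LIN 4 and DHT 4 lie on slide 1, and control 4 lies on slide 3, which was scanned on another day. LIN minus control had a median of -0.41 (94 of 100 members below 0) and LIN minus DHT one of -0.56 (93 below 0). All probes had medians of 0.01 in both, with 48.0% and 48.4% below 0. Of the 2 dimmest classes 46.2% and 44.6% were below 0. DHT minus control was 0.06 over the members, with 41 below 0, against 51.6% of all probes.

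In number 3 the members were close to control with Flutamide and below it with LIN. Flutamide 3 and LIN 3 lie on slide 1, and control 3 lies on slide 2, which was scanned on another day. Flutamide minus control had a median of -0.04, with 53 members below 0. All probes had a median of 0.10 (38.6% below 0) and the 2 dimmest classes one of 0.20 (31.2% below 0). LIN minus control had a median of -0.32 (82 below 0). All probes had one of 0.01 (49.3% below 0) and the 2 dimmest classes one of 0.10 (39.9% below 0). In number 1, which only DHT and control hold, DHT minus control had a median of -0.36 over the members (90 below 0). It was -0.06 over all probes (58.6% below 0) and -0.13 over the 2 dimmest classes (66.9% below 0).

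Over the 10 differences of Flutamide or LIN against control or DHT within a number, 44 members were below 0 in all 10, against 200 of the 11144 probes (1.79%). Members were below 0 in 6 at the fewest and in 9 at the median. Because the rule used these arrays, the count is a description. With number as a fixed block, the members' median became -0.59 for Flutamide minus control and -0.99 for LIN minus control. Flutamide minus LIN rose to 0.43, with 4 members below 0. In that fit the medians over the 13146 kept probes were 0.01, -0.07 and 0.07 in the same order.

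To read the pattern on arrays that had no part in the group means, the rule was applied again with means taken without the arrays of 1 number. The 100 probes it then chose were read on the arrays left out. Probes still had to be well above background on every array, so the left-out arrays kept a part in the choice through that filter. This reading was added after the data had been seen, and each difference rests on 1 array a group. The arrays of numbers 3, 4 and 5 lie on more than 1 slide and were scanned on more than 1 day. Without number 5, the chosen probes (81 of them members) had a median of -1.09 for Flutamide minus DHT and of -1.16 for LIN minus DHT on the number 5 arrays, all 100 below 0 in both. All probes had 56.2% and 62.3% below 0, and the 2 dimmest classes 70.9% and 79.7%.

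Without number 6, the chosen probes (67 of them members) had medians of -0.70 for Flutamide minus control and -2.10 for LIN minus control on the number 6 arrays, with 93 and 100 below 0. Against DHT 6 they had -0.55 with Flutamide and -1.93 with LIN, with 89 and 100 below 0. DHT minus control was -0.14, with 80 below 0. All probes had a median of -0.07 in it (60.9% below 0) and the 2 dimmest classes one of -0.18 (69.1% below 0). The 2 dimmest classes of all probes had medians of -0.23 and -0.63 against control and of -0.04 and -0.37 against DHT. Below 0 were 67.7% and 78.1% of those classes against control, and 55.8% and 72.9% against DHT. Of all probes, 57.0% and 62.6% were below 0 against control, and 48.4% and 58.5% against DHT.

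Numbers 4 and 3 gave smaller values. Without number 4, the chosen probes (71 of them members) had medians of -0.30 for LIN minus control and -0.43 for LIN minus DHT on the number 4 arrays, with 84 and 79 below 0. All probes had 48.0% and 48.4% below 0 there, and the 2 dimmest classes 46.2% and 44.6%. Without number 3, the chosen probes (60 of them members) had a median of -0.14 for LIN minus control, with 64 below 0, where all probes had 49.3% below 0. For Flutamide minus control in number 3 they had 0.24, with 31 below 0, where all probes had a median of 0.10 with 38.6% below 0 and the 2 dimmest classes one of 0.20 with 31.2% below 0. On the left-out arrays, then, the chosen probes were below control with Flutamide in number 6, and in number 3 they lay above it about as far as the dim probes did.

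The 3 slides carried 7, 2 and 7 arrays, and slide 1 was scanned on another day than slides 2 and 3. On slide 1 the members' median level was -3.83 and -4.49 on the Flutamide arrays and -4.03 and -3.66 on the LIN arrays, against -3.25 and -3.15 on the DHT arrays and -2.99 on the control array. On slide 2 it was -4.66 on the Flutamide array and -3.66 on the control array. On slide 3 it was -4.10 on the Flutamide array and -4.56 and -5.30 on the LIN arrays, against -3.31 and -3.23 on the DHT arrays and -3.14 and -3.28 on the control arrays. Within each slide every Flutamide or LIN array lay below every DHT or control array. The rule chose the members on these same arrays, so this order is a description and shows nothing about the slide. The median of all class 1 probes, the dimmest, kept the order on slides 2 and 3. On slide 1 it did not, with LIN 4 (-4.93) and Flutamide 3 (-4.96) above DHT 4 (-4.97). With slide as a block the members' median was -1.03 for Flutamide minus control and -1.32 for LIN minus control. DHT minus control moved to -0.17, with 92 members below 0, against a median of -0.06 over the 13146 kept probes.

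The array barcodes in the file headers give 2 position numbers after the slide, and the second, called place here, followed the groups. The first was 1 or 2, and every group held both. Arrays of the same place can thus differ in the first number, as Flutamide 3 and Flutamide 5 did on slide 1. All 4 Flutamide arrays stood at place 3, with members' medians of -4.66 to -3.83, and LIN 3, LIN 5 and LIN 6 at place 4, with -5.30 to -4.03. The 4 control arrays and DHT 4 stood at place 1, with -3.66 to -2.99, and DHT 1, DHT 5, DHT 6 and LIN 4 at place 2, with -3.66 to -3.23. LIN 4, the single LIN array outside place 4, was the highest LIN array, and within place 2 it was the lowest. Flutamide shared no place with any other group and LIN none with control, so in these comparisons place and compound cannot be told apart.

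Among the probes in which the compounds differed most, UF_Ppr_AF_102923 (FJU.8177.C2) averaged -2.85 ± 0.40 with Flutamide, -3.36 ± 0.99 with LIN, -1.95 ± 0.15 with DHT and -1.79 ± 0.47 in controls (SD, n = 4 each). Its lowest array was LIN 6 at -4.66. UF_Ppr_AF_110725 (gi_73584386) went the other way, with -4.40 ± 0.43 with Flutamide, -4.02 ± 1.44 with LIN, -2.97 ± 0.80 with DHT and -2.85 ± 1.18 in controls (SD, n = 4 each), and its LIN arrays ran from -5.40 on LIN 6 to -2.05 on LIN 4. UF_Ppr_AF_114727 (FJU.3384.C1) averaged -3.96 ± 0.21 with Flutamide, -3.67 ± 0.75 with LIN, -2.82 ± 0.54 with DHT and -2.86 ± 0.45 in controls (SD, n = 4 each). The Flutamide minus LIN differences of these 3 probes, 0.51, -0.38 and -0.29, had standard errors of 0.39, 0.68 and 0.36 in limma's fit.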

How the data were processed

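The file headers name Feature Extraction 10.7.1.1 as the feature extractor. Per the file headers it gave each spot a processed intensity with background removed and detrended. Spot flags (other values, 0 or 1) for signal over background, saturation and uniformity were used as deposited. A second table, deposited by the authors, holds log2 values of these arrays. Its columns correlated with the same array's log2 signal at r from 0.999314 to 0.999996, so its direction is known. Its column medians lie between 7.72 and 7.77, and its method and centring constant are not given in the sources used here.

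Of 15744 spots, 536 control spots were left out, except for spike-in centring. Levels were log2 of the processed signal minus log2 of the array's 75th percentile over the 15208 probes, 1 spot each. limma 3.58.1 in R 4.3.3 fitted 4 group means over all 16 arrays, two-sided, with Benjamini-Hochberg adjustment over the 13146 probes well above background on at least 3 of 4 arrays of 1 group. Spots marked as outliers (185 in all, 1 among the members, on DHT 6) were left out of these fits and not of the means that chose the members. UF_Ppr_AF_117967, the member with such a spot, is a member only with it: DHT minus control was 0.05 with the spot and -0.55 without it, outside the limit of 0.3. 0 probes were saturated. The number of arrays limits the precision. Scripts were tested on simulated data.

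Replicate numbers come from the titles, which do not say what a number marks. Same-numbered arrays correlated in their deviations from group means in all 16 pairs (r from 0.348 to 0.783). The 80 pairs of other numbers had r from -0.433 to 0.410, so the ranges overlapped. All 15 arrays with a partner correlated best with an array of their own number, and the numbers were therefore read as pairing the samples. The members and lists were chosen with earlier results of these data known. The probes named are at most 2 for each of the widest and narrowest margin, the highest and lowest level, the smallest and largest spread, the smallest p for number, the largest and smallest Flutamide minus LIN difference and each comparison's calls; the stem FJU.6392 was added after its values were seen. Gene lists and cell type markers had 0 matched names and were not used, so the ovary label was not checked against markers.

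Alternatives were other scalings (with spike-in centring added after seeing the data), backgrounds, filters and limits, the choice without outlier spots (also added then), the authors' table, replicate and slide blocks and leaving out arrays. Normexp used the median spot signal and median local background, with an offset of 50.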

Additional observations from a re-analysis of the deposited data

Results flagged for a closer look

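In 84 groups of 4 arrays (80 of the 20 members named and 4 of the members' median levels), 5 had an array standing far from the other 3 by Dixon's test, which chance gives in about 1 in 20 groups. The level of UF_Ppr_AF_111116 on LIN 6 was -6.19, while the other LIN arrays lay between -4.24 and -3.90. UF_Ppr_AF_102126 on DHT 6 was at -4.23, above DHT arrays at -5.92 to -5.73. UF_Ppr_AF_103365 on DHT 1 was at -0.85, below DHT arrays at -0.41 to -0.35. UF_Ppr_AF_101427 on DHT 4 was at -3.25, below DHT arrays at -3.02 to -2.99. UF_Ppr_AF_101871 on control 1 was at 0.78, above control arrays at 0.46 to 0.49. The 5 values fell on 5 different arrays, 3 of them DHT arrays, and what sets them apart was not tested.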

How the results depend on the processing

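The members' median margin, 0.88, ran from 0.77 to 0.98 when each array was left out in turn, and it stayed between 0.56 (fixed replicate block) and 1.06 (without the arrays of number 3) under 14 of the 16 other settings. With normexp background it turned to -0.19: on Flutamide 2 normexp raised the members' median signal to 1295 units, against 101.0 for spot minus background, while on the other arrays the signal stayed near spot minus background. Normexp without Flutamide 2, chosen after seeing the data, gave 0.43. All these margins are of the same 100 probes, which were chosen for a wide margin on these arrays. The choice itself favours a margin above 0, so the values are a description and no test of stability. Of the 100 members, 18 were chosen again with normexp, 30 with spike-in centring, 46 with normexp without Flutamide 2, 57 without numbers 1 and 2, 60 with the fixed replicate block, 60 without the arrays of number 3 and 62 with the slide block. The other 11 settings gave 67 to 99, and leaving out 1 array gave 66 (without control 3) to 91.

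Members called lower in limma (1 with Flutamide and 1 with LIN, against control) were 0 in both with normexp, with or without Flutamide 2, plain background subtraction, the fixed replicate block, no filter on dim probes, or without numbers 1 and 2. For Flutamide spike-in centring gave 10, on a scale where 88.7% of all 11144 probes lay below 0 in this comparison. The random replicate block gave 2 (10 of all probes, 0.0761%). Leaving out 1 array gave 0 to 1, with 0 for each Flutamide, DHT or control array. For LIN, median scaling and spike-in centring gave 0, quantile normalization 2 and the authors' values 2. The slide block gave 3 (5 of all probes, 0.0380%) and the random replicate block 23 (84 of all, 0.639%). Leaving out 1 array gave 0 to 21, with 21 without LIN 4 (63 of all, 0.479%), 1 without DHT 1 and 0 without any other. Against DHT (0 calls), Flutamide had 1 with median scaling, quantile normalization or the authors' table. LIN had 2 with quantile normalization and 13 with the random replicate block (45 of all probes, 0.342%), and leaving out 1 array gave 0 to 0. Calls for number (16, against 51.6% of all probes) became 27 with quantile normalization, 88 with normexp and 51 with normexp without Flutamide 2. Leaving out 1 array gave 12 to 35 (35 without LIN 6, against 51.8% of all). Calls for slide (0) became 47 with normexp without Flutamide 2, and 0 to 11 (11 without Flutamide 5, against 6.23% of all) with 1 array left out. For the other scalings and backgrounds the share of all probes called is not given. Nothing about the members is therefore read from those counts. Other causes were not tested. Signal over background limits what these probes can show, with the members' median spot at 3.07 to 11.3 times its local background.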
